A study of Homo sapiens with 6 samples.

Results

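MicroRNAs receive their miRBase numbers in the order of their annotation, so names from miR-3000 onwards mark microRNAs that entered the database late, most of them after deep sequencing became common. The 190 late-annotated microRNAs described here were measured in K562, a human erythroleukemia cell line. They were chosen by a readout: every human entry numbered 3000 or above with at least 30 counts summed over the 6 samples was taken, except for entries under 9 numbers that the rule names (miR-3607, miR-3648, miR-3651, miR-3653, miR-3687, miR-4449, miR-4488, miR-4497 and miR-4732). The files list 1440 names from number 3000 onwards among 2596 microRNA and 28846 small RNA entries. Of these names, 769 had at least 1 count and 199 reached 30 counts, of which 9 were entries left out by number. Since the members were selected on their summed counts, their levels are given as a description. The control group comprised 3 cultures transduced with the empty lentiviral vector SIEW, which expresses GFP only. The RUNX1 group comprised 3 cultures that received SIEW RUNX1, which carries human RUNX1 and GFP. All cultures were K562 cells kept for 10 days, and the transductions were independent triplicates. The lentiviral RUNX1 level is not part of a small RNA count file, so the over-expression was not checked here.

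A canonical microRNA is cut from a hairpin transcript by Drosha and Dicer, and either arm of the hairpin, named 5p or 3p by its position, can be loaded into an Argonaute protein. Bases 2 to 8 of the mature strand, the seed, pair with target mRNAs. Some hairpins bypass Drosha and are released by the spliceosome as short introns called mirtrons, and the 3p arm of a mirtron then ends at the 3′ splice site, where introns end in AG. Late-annotated names hold many mirtrons, many weakly expressed hairpins and some short GC-rich entries.

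The mature sequences below were taken from the RefSeq microRNA table on GRCh38.p14, in which 168 of the 190 members had an entry, and bases 2 to 8 are in capitals. The first set holds 6 of the members with the 8 largest rises upon RUNX1 expression, which share no seed with each other. Of the other two, miR-4532 had no entry and miR-6769b-3p is shown with the arms that end at a splice site.
miR-3065-3p: uCAGCACCaggauauuguuggag
miR-3065-5p: uCAACAAAaucacugaugcugga
miR-3613-5p: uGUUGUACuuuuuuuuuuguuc
miR-3613-3p: aCAAAAAAaaaagcccaacccuuc
miR-5683: uACAGAUGcagauucucugacuuc
miR-3615: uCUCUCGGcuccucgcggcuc
The second set holds members from among the 8 largest falls. Of these 8, miR-4662a-5p and miR-4659a-3p are not printed.
miR-7976: uGCCCUGAgacuuuugcuc
miR-3917: gCUCGGACugagcagguggg
miR-5189-3p: uGCCAACCgucagagcccaga
miR-6125: gCGGAAGGcggagcggcgga
miR-4466: gGGUGCGGgccggcgggg
miR-4532 and miR-6087, which had the largest rise and the largest fall, are named only.

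Total counts ranged from 1618248 to 6193319 in control and from 7918551 to 15245007 in RUNX1 samples, so 3 counts, taken as the floor, corresponded to between 0.197 and 1.85 CPM. No replicate pair agreed within sampling noise (chi-square over degrees of freedom, 9.62 to 451). RUNX1 replicate 3 stood apart, at 451 and 314 against the other RUNX1 samples, which differed from each other by 56.3. All 5 erythroid microRNAs of the marker list were detected, miR-451a at 1312 to 3158 CPM, and their summed level was 4478 to 5108 CPM without and 2386 to 3785 CPM with RUNX1. The list did not move as one. miR-451a, miR-144-5p and miR-486-5p were lower with RUNX1, and miR-486-3p overlapped between the groups. miR-144-3p was higher, with 285, 902 and 841 counts in the control and 2598, 1559 and 1728 in the RUNX1 group (111 CPM at the lowest, 252 CPM at the highest). Of 8 markers of other cell types, miR-124-3p and miR-206 were at 0, 5 lay between 0 and 1.37 CPM, and the endocrine marker miR-375 was present at 67.0 to 207 CPM. The summed level of the 8 was 68.9 to 77.8 CPM without and 171 to 210 CPM with RUNX1, and the part of either list in the results was not tested. In bulk samples, fewer cells of a kind and less RNA per cell cannot be told apart.

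Late-annotated microRNAs were a small and uneven part of the microRNA pool of these cells. The members had a median of 110 summed counts, beside 697 for the 486 older microRNA entries that also reached 30 counts. Of the 291406 counts on members, miR-4532 held 64.7%, the 2 most abundant members 74.5% and the 10 most abundant 88.1%. Only 16 members reached 1000 summed counts, 100 reached 100, and 53 had at least 10 counts in every sample. The members together took 0.444%, 0.464% and 0.459% of the microRNA counts in the control replicates in their order, and in the RUNX1 replicates 0.734%, 0.974% and 0.856%. The RUNX1 samples all lay above the control samples, and the mean share was 1.87 times as high (0.854% ± 0.120 against 0.456% ± 0.0103, SD, n = 3 each). miR-4532 alone went from a share of 0.0473% ± 0.00534 to one of 0.657% ± 0.124 (SD, n = 3 each). Without it the direction turned: the other 189 members took 0.408% ± 0.00671 in the control and 0.197% ± 0.0220 in the RUNX1 group (SD, n = 3 each). A share falls where another microRNA gains counts, and with miR-10a-5p left out of the denominator the share of all members was 2.48 times as high in RUNX1 samples. That denominator was not used for the other 189 members, so their fall describes shares and not levels. On the TMM scale the median log2 fold change of the 138 tested members, miR-4532 among them, was −0.22.

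**Figure D1:**
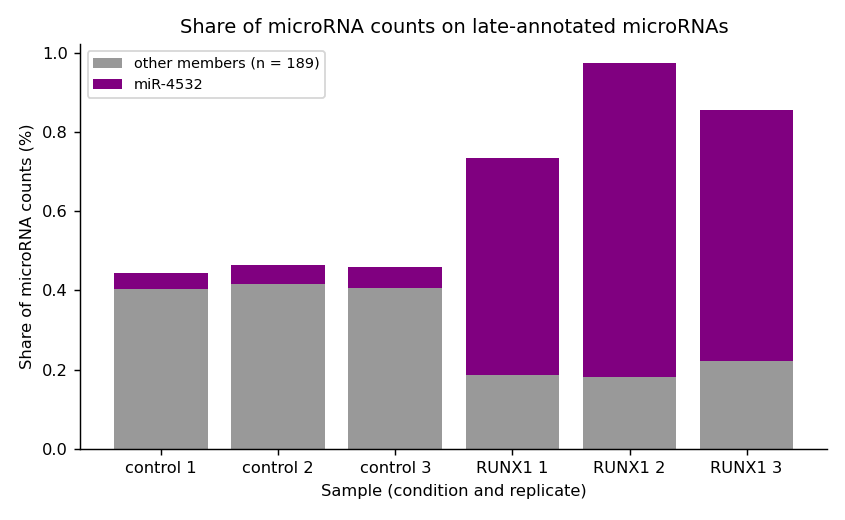
Share of microRNA counts in percent on the late-annotated members in each of the 6 samples, with miR-4532 (purple) stacked on the other 189 members (grey). The grey part is lower and the purple part higher in all 3 RUNX1 samples, and the whole bar goes from 0.444 to 0.464% in control to 0.734 to 0.974% in RUNX1 samples.

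Upon RUNX1 expression, 72 of the 138 members with enough counts to be tested by edgeR were altered, which here means a P-value below 0.05 together with a log2 fold change beyond 0.5 in either direction. This is 52.2%, beside 57.6% of all 947 small RNAs tested, so the share of altered members was close to the background. Up-regulated were 31 of the 138 members and down-regulated 41, beside 265 up (28.0%) and 280 down (29.6%) of the 947 small RNAs. The share of falls was thus close to the background, and the share of rises was below it. Scaling by library size only gave 11 up and 75 down, and TMM factors from microRNA entries only gave 23 up and 53 down, so the split between the directions depends on the scaling. The median log2 fold change was −0.22 for the members and −0.06 for all tested small RNAs, and library size only moved these medians to −0.91 and −0.76. The 441 tested older microRNAs had a median of 0.15, with 162 up and 86 down, but 78 up and 207 down with library size only and 132 up and 114 down with TMM on microRNA entries. With the adjusted P-value in place of the P-value, 66 members were altered (47.8%), 30 up and 36 down, beside 54.6% of all tested small RNAs. The groups did not overlap in 71 of the 138 tested members, a smaller share than the 614 of all 947 tested small RNAs (64.8%). Among these 71 members were 66 of the 72 altered ones. Without RUNX1 replicate 3, 86 of 145 tested members were altered (59.3%), 35 up and 51 down, beside 63.2% of all small RNAs tested in that fit. This sample lay nearest to the control samples in 48 of the 72 altered members (66.7%), as it did in 66.4% of all altered small RNAs.

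**Figure D2:**
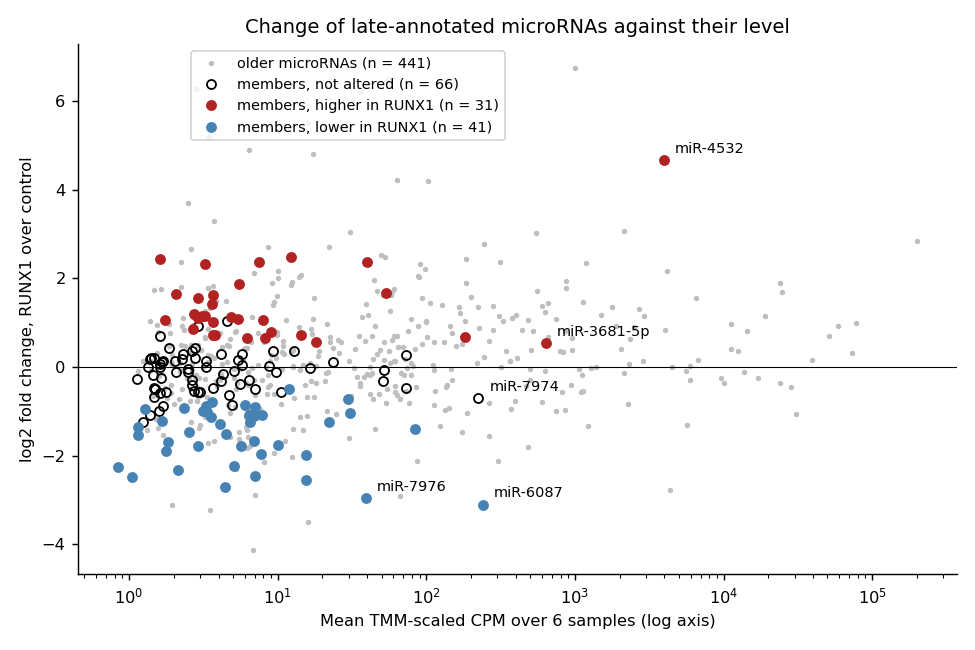
log2 fold change of RUNX1 over control from the edgeR fit against the mean TMM-scaled CPM on a log axis, 1 point per microRNA, with older microRNAs in grey and tested members in colour by call. Altered members lie on both sides of 0 at all levels, and miR-4532 (4.66) and miR-6087 (−3.11) are the extremes. The 31 up and 41 down became 11 and 75 when only the library size was used for scaling.

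Among the members, miR-4532 rose most and was the most abundant. It had no RefSeq entry, so its sequence was not compared with those of other RNAs. Control replicates 1 to 3 held 551, 2423 and 2643 of its counts, and the RUNX1 replicates 76586, 61428 and 44872. Scaled to the libraries, these are 264, 301 and 348 CPM against 6644, 9828 and 6549 CPM, and the lowest RUNX1 sample lay far above the highest control sample. The log2 fold change was 4.66 ± 0.21 (SE), a 25.2-fold rise (edgeR, adjusted p = 8.07e-07).

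Both arms of the miR-3613 hairpin rose together. This hairpin lies in an intron of DLEU2, a long noncoding RNA on chromosome 13 that also hosts miR-15a and miR-16-1, and the mature 5p arm maps to chr13:49996465-49996486 on the minus strand of GRCh38. miR-3613-5p stood at 15.3, 9.56 and 14.5 CPM in control samples, against 69.4, 92.6 and 36.3 CPM with RUNX1 (log2 fold change 2.37 ± 0.35, SE, edgeR, adjusted p = 0.000351). The 3p arm went from 2.39, 2.48 and 2.37 to 13.8, 17.8 and 5.84 CPM (log2 fold change 2.36 ± 0.42, SE, edgeR, adjusted p = 0.00114). In both arms, RUNX1 replicate 3 was the lowest of its group and still above every control sample.

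Both arms of miR-3065 also rose. The hairpin lies at chr17:81125877-81125955 on the plus strand, opposite MIR338. miR-3065-3p was at 4.30, 3.97 and 3.16 CPM without and at 28.0, 21.1 and 12.8 CPM with RUNX1 (log2 fold change 2.49 ± 0.32, SE, edgeR, adjusted p = 0.000177). miR-3065-5p went from 2.29 ± 0.411 to 8.69 ± 3.26 CPM (SD, n = 3 each), and its log2 fold change was 1.87 ± 0.35 (SE, edgeR, adjusted p = 0.00159).

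Single-arm entries rose as well. miR-3615, in an exon of SLC9A3R1 (NHERF1, a scaffold protein), was at 22.0, 26.2 and 28.8 CPM in control samples, against 92.1, 70.6 and 83.6 CPM with RUNX1, a 3.15-fold rise (log2 fold change 1.66 ± 0.16, SE, edgeR, adjusted p = 3.44e-05). No RUNX1 sample came near a control sample. miR-5683, intergenic on chromosome 6, rose from 4, 6 and 8 counts to 61, 32 and 36 counts (log2 fold change 2.31 ± 0.32, SE). miR-6769b-3p, in an intron of the kinase gene IKBKE, went from 1, 3 and 5 to 40, 17 and 14 counts (log2 fold change 2.43 ± 0.41, SE). Both had under 30 control counts in sum and became members through their RUNX1 counts, so their rises are given as a description without a p.

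**Figure D3:**
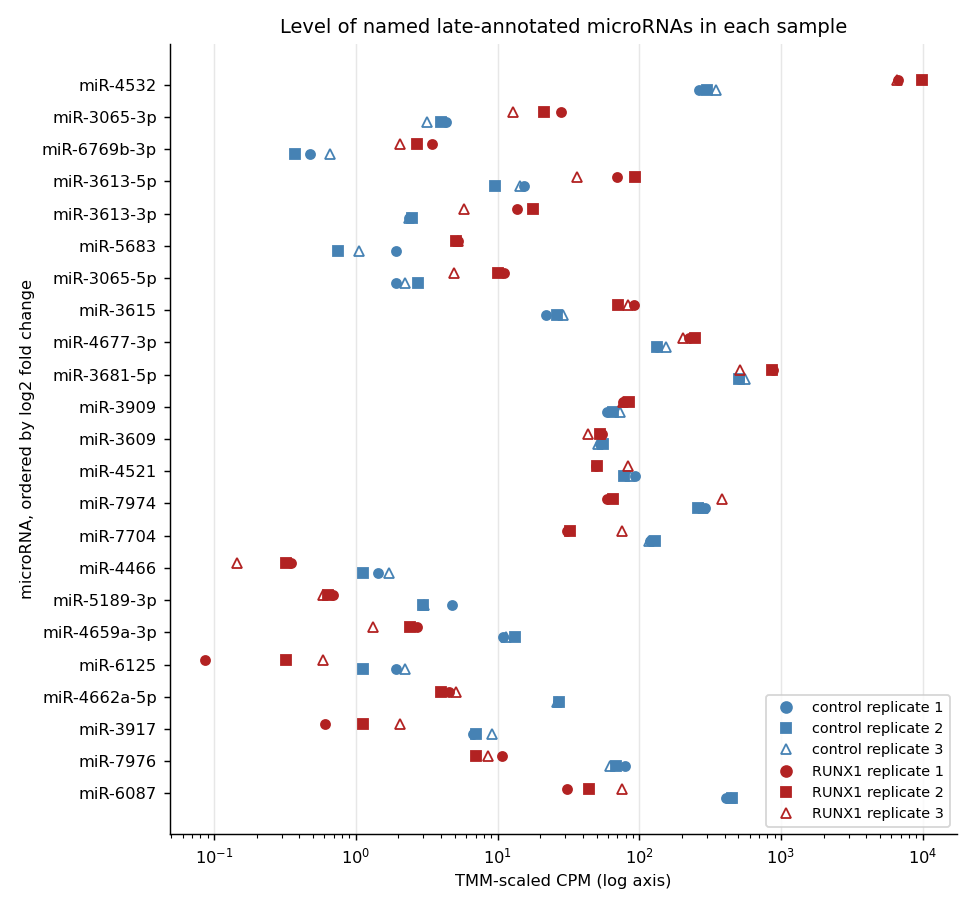
TMM-scaled CPM on a log axis for the 10 most abundant members and those with the 8 largest rises and 8 largest falls, 1 symbol per sample, ordered by log2 fold change. The groups lie apart from miR-4532 down to miR-4677-3p, in miR-3909 and again from miR-7704 down to miR-6087. RUNX1 replicate 3 (open red triangle) reaches the control range in miR-3681-5p and miR-4521 and lies above it in miR-7974.

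The largest fall was that of miR-6087, the third most abundant member, which dropped from 408, 449 and 444 CPM to 31.1, 44.3 and 76.0 CPM. Like miR-4532, it had no RefSeq entry, and its sequence was not compared with those of other RNAs. The log2 fold change was −3.11 ± 0.30 (SE, edgeR, adjusted p = 2.83e-05), and the groups were far apart. miR-7976, in an intron of TPRA1, fell from 79.9, 68.4 and 61.9 to 10.7, 7.04 and 8.61 CPM (log2 fold change −2.97 ± 0.19, SE, edgeR, adjusted p = 2.98e-06). miR-4662a-5p had nearly equal levels within each group, 26.7 ± 0.308 CPM against 4.54 ± 0.555 CPM (SD, n = 3 each, log2 fold change −2.55 ± 0.18, SE, edgeR, adjusted p = 4.12e-06). miR-4659a-3p went from 11.9 ± 1.21 to 2.13 ± 0.725 CPM (SD, n = 3 each), with no overlap.

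Further falls were seen at low counts. miR-3917 lies in an exon of STMN1, which encodes the microtubule regulator stathmin, and went from 14, 57 and 69 counts to 7, 7 and 14 counts (log2 fold change −2.70 ± 0.38, SE). miR-5189-3p lies in an intron of ZFPM1, which encodes the GATA1 cofactor FOG1, and fell from 10, 24 and 23 counts to 8, 4 and 4 counts (log2 fold change −2.33 ± 0.34, SE). The libraries differed in depth, so for miR-5189-3p the 8 counts of RUNX1 replicate 1 are 0.694 CPM, whereas the 10 counts of control replicate 1 are 4.78 CPM. miR-6125, in an exon of USP15, and miR-4466, intergenic, had no more than 4 counts in any RUNX1 sample, and their log2 fold changes were −2.49 ± 0.60 and −2.25 ± 0.47 (SE). All 4 had under 30 RUNX1 counts in sum, and 3 of them reached 30 counts in the control group (miR-4466 in neither), so their falls too are a description without a p. The 8 members with the largest rises and the 8 with the largest falls kept their call in each alternative that tested them. They were picked by adjusted P-value, lack of overlap and size of change in these same samples. Keeping the call was therefore likely from the start and gives no independent support.

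Other abundant members changed less, and some varied within the RUNX1 group. miR-3681-5p, in an intron of its host MIR3681HG, was the second most abundant member, with 504, 502 and 560 CPM in the control and 883, 864 and 514 CPM in the RUNX1 group. RUNX1 replicate 3 lay within the control range, and the log2 fold change of 0.53 ± 0.20 (SE, edgeR, adjusted p = 0.0478) passed the thresholds only narrowly. The call was lost without control replicate 1, control replicate 2, RUNX1 replicate 1 or RUNX1 replicate 2, with the replicate block and with TMM on microRNA entries (0.33), and the value turned to −0.19 with library size only. miR-4677-3p, in an intron of SDCCAG8, rose from 133, 133 and 154 to 225, 246 and 203 CPM without overlap (log2 fold change 0.68 ± 0.14, SE, edgeR, adjusted p = 0.00228), but the call was lost with TMM on microRNA entries (0.48) and the value was −0.03 with library size only. miR-7704, in an exon of HOXD1, fell from 118, 130 and 117 to 31.1, 32.5 and 75.2 CPM (log2 fold change −1.40 ± 0.31, SE, edgeR, adjusted p = 0.00395).

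miR-7974 was not altered in edgeR with all samples and was, among the 10 most abundant members, the one whose RUNX1 replicates differed most. It was at 290, 261 and 283 CPM in the control group and at 59.2, 65.1 and 386 CPM with RUNX1, so the third RUNX1 sample lay above every control sample and the other two far below. Its log2 fold change was −0.71 ± 0.62 (SE, edgeR, adjusted p = 0.351). It passed the thresholds with the replicate block (−1.31), without a filter (−0.65) and without RUNX1 replicate 3 (−2.07). miR-4420, in an intron of LAPTM5, was at 10.0, 10.3 and 11.1 CPM in the control group and at 0.954, 0.800 and 8.61 CPM with RUNX1. RUNX1 replicate 3 was again far above the rest of its group, though below every control sample. The log2 fold change of −1.67 was −3.44 without RUNX1 replicate 3. With all samples it passed by the P-value but not by the adjusted one (0.0654, edgeR), and the call was lost without any single other sample. miR-4521 was at 93.7, 77.4 and 85.3 CPM without and at 49.8, 50.6 and 82.8 CPM with RUNX1, and its log2 fold change of −0.48 ± 0.21 (SE) missed the fold threshold. It passed with the replicate block (−0.52), with TMM on microRNA entries (−0.67), with library size only (−1.16) and without RUNX1 replicate 3 (−0.67). miR-3909, in an intron of TOM1, lay between 58.8 and 85.3 CPM in all samples, the RUNX1 samples just above the control samples, with a log2 fold change of 0.26 ± 0.14 (SE, edgeR, adjusted p = 0.125), and miR-3609 between 43.8 and 55.1 CPM with −0.08 ± 0.14 (SE, edgeR, adjusted p = 0.657). Among the 138 tested members, RUNX1 replicate 3 was at least 2 times the mean of the other RUNX1 samples in 23 and at most 0.5 of it in 10.

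Some late names are unusually short. Of the 168 members with a sequence, 138 (82.1%) had the usual length of 21 to 23 bases, beside 92.1% of the 432 older microRNAs with a sequence. Shorter than 20 bases were 12 members, a grouping made after the values were seen. Of these, 11 were tested, with 0 up and 6 down in edgeR, by the P-value alone as well, and 1 up and 5 down in DESeq2. The share altered was 54.5%, near the 57.6% of all tested small RNAs. Those down in edgeR were miR-7704, miR-7976, miR-3176, miR-4443, miR-4492 and miR-4466. In edgeR, 9 of the 11 fell with library size only, 8 with TMM on microRNA entries and 10 without RUNX1 replicate 3, with 0 up in each. In the same order, all tested members had 11 up and 75 down, 23 up and 53 down, and 35 up and 51 down. These fits reuse the libraries in which the grouping was made, so they give no independent support for its direction. The GC content of the members had a median of 54.6%, with a range from 22.7% in miR-3613-5p to 94.4% in miR-4466, beside a median of 47.8% for older microRNAs. Among members over 70% GC, 1 rose and 5 fell of 14 tested (42.9% altered, beside 57.6% of all tested small RNAs), whereas 5 rose and 2 fell of 17 older microRNAs over 70% GC. Below 50% GC, 13 rose and 11 fell of 49 tested members, and 88 rose and 38 fell of 209 older microRNAs. Across the 120 tested members with a sequence, GC content and log2 fold change had a Pearson r of −0.22 and a Spearman rho of −0.15, which describes a weak relation among points that share the same 6 libraries.

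Arms that end at a splice site were common among the late names. In 27 of the 168 members with a sequence (16.1%), the 3p arm ended within 2 bases of the 3′ end of an intron in GENCODE 29, or the 5p arm began within 2 bases of its 5′ end. The same held for 6 of 432 older microRNAs (1.39%). All but 1 of the 27 were 3p arms, and 25 ended in AG, whereas 35 of all 168 members did so. In 5 of them the bases 2 to 8 and the last 2 bases are shown in capitals, since these members were altered or were the most abundant of the 27.
miR-6769b-3p: cCCUCUCUgucccacccauAG
miR-6855-3p: aGACUGACcuucaaccccacAG
miR-4742-3p: uCUGUAUUcuccuuugccugcAG
miR-5010-3p: uUUUGUGUcucccauuccccAG
miR-6798-3p: cUACCCCCcaucccccuguAG
The 6000s held 20 of the 27, out of 32 members of that band with a sequence. Their levels were low, with a median of 59 summed counts. Only 14 of the 27 passed the filter, and 4 of these rose and 1 fell (35.7% altered, beside 57.6% of all tested small RNAs). With library size only, 1 rose and 3 fell, and without RUNX1 replicate 3, 4 rose and 1 fell. Besides miR-6769b-3p, the risers were miR-6855-3p in USP20, with 4, 26 and 15 counts against 62, 29 and 34 (log2 fold change 1.00 ± 0.27, SE, edgeR, adjusted p = 0.0114), miR-4742-3p in WDR26 (1.07 ± 0.38, SE) and miR-3605-3p in PHC2 (0.72 ± 0.28, SE). miR-3605-3p lost its call in 6 of 12 alternatives, which were DESeq2, the replicate block, TMM on microRNA entries, library size only (0.04) and the fits without control replicate 3 or RUNX1 replicate 3. miR-4742-3p lost it without control replicate 2 and with library size only, and miR-6855-3p with library size only. The faller was miR-4745-5p, at the start of an intron of the splicing regulator gene PTBP1, with 6, 16 and 17 counts against 9, 4 and 10 (log2 fold change −1.23 ± 0.38, SE). miR-4742-3p had under 30 control counts in sum and miR-4745-5p under 30 RUNX1 counts. miR-5010-3p in ATP6V0A1 and miR-6798-3p in RUVBL2 had the highest counts of the 27, and their log2 fold changes were 0.04 ± 0.29 and 0.30 ± 0.31 (SE).

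By number band, 36 of 58 tested members in the 3000s were altered (62.1%), 16 of 41 in the 4000s (39%), 5 of 11 in the 5000s (45.5%), 11 of 19 in the 6000s (57.9%) and 4 of 9 from 7000 on (44.4%), beside 57.6% of all tested small RNAs. The median summed count was 159 in the 3000s and 51.5 in the 6000s, and the median log2 fold changes ranged from −0.71 from 7000 on to 0.12 in the 6000s. By arm, 7 rose and 11 fell of 34 tested 5p members, 16 rose and 12 fell of 58 tested 3p members, and 8 rose and 18 fell of 46 whose names give no arm. In the same order, older microRNAs had 79 up and 38 down of 202, 66 up and 35 down of 186, and 17 up and 13 down of 53, and over all tested small RNAs 28.0% rose and 29.6% fell. Hosts were mostly protein-coding: 121 of the 168 members with a sequence (72.0%) lay in such a gene on the same strand, beside 53.0% of older microRNAs. Of the 79 tested ones, 15 rose and 24 fell, and of 214 such older microRNAs 77 rose and 45 fell. Of the 22 members without a sequence, 18 were tested, and 4 rose and 9 fell (72.2% altered). Beside this, 49.2% of tested members with a sequence and 55.3% of tested older microRNAs without one were altered. The difference was not tested.

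**Figure D4:**
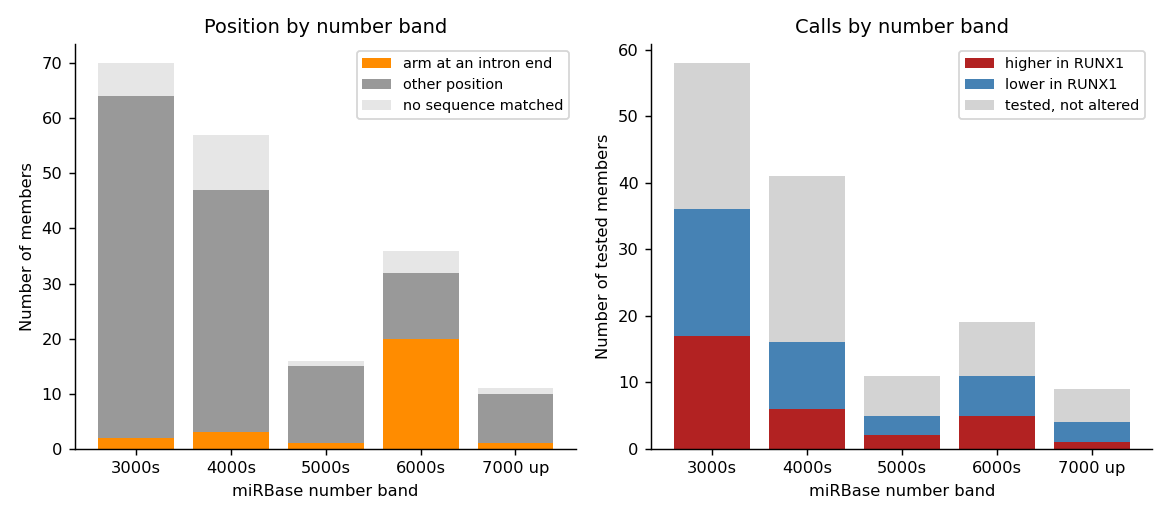
Number of members by miRBase number band, split by position (left: arm at an intron end, other position, or no matched sequence) and, for tested members, by call (right). The 6000s hold 20 of the 27 intron-end members, and both directions occur in every band; the split of 31 up and 41 down became 11 and 75 with library size only.

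The ratio between the arms of a hairpin needs no scaling between libraries. Both arms were members in 24 hairpins, and the 3p arm was the more abundant one in the control mean of 9 of them. The log2 ratio of 3p to 5p counts, with 1 added to each, did not overlap between the groups in 9 of the 24, beside 51.2% of the 166 hairpins of any age with both arms at 30 counts or more. Each of these 9 had p = 0.1 in the exact two-sided permutation test, the smallest p that 3 samples against 3 allow, and an adjusted p of 0.267 over the 24. The 3p arm gained in 4 of the 9 and lost in 5. miR-5189 shifted most. Its log2 ratio was 2.46, 0.25 and 0.88 in the control group and −0.64, −0.85 and −0.85 with RUNX1, so the 3p arm was in excess in all control samples and the 5p arm in all RUNX1 samples. The counts behind it are low, with 1, 20 and 12 counts of the 5p arm in the control and 13, 8 and 8 in the RUNX1 group. Its 3p arm had under 30 RUNX1 counts in sum and became a member through its control counts. The shift of miR-5189 is therefore a description, and its p is no support. In miR-6503, the mean log2 ratio fell from 1.85 ± 0.154 to 0.98 ± 0.672, and in miR-3127 from −0.86 ± 0.240 to −2.08 ± 0.435 (SD, n = 3 each). miR-3613 kept its arm ratio, at −2.30 ± 0.355 and −2.43 ± 0.152 (SD, n = 3 each), while both arms rose. In the 18 hairpins with both arms tested, both arms were altered in the same direction in 6 and in opposite directions in 0 by edgeR, with the same counts at an unadjusted p under 0.05 alone, and in 4 and 0 by DESeq2. Older hairpins were not counted in this way, so these counts have no background beside them. Of all tested small RNAs, taken singly, 57.6% were altered in edgeR.

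**Figure D5:**
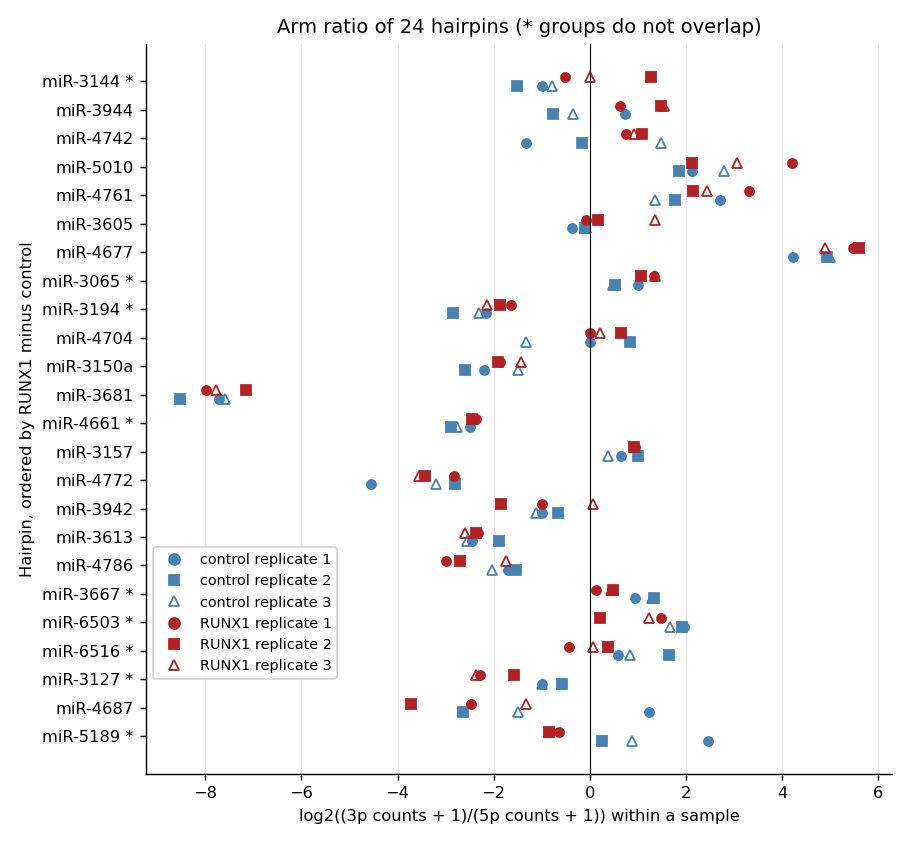
log2 ratio of 3p to 5p counts, with 1 added to each, within every sample for the 24 hairpins with both arms among the members, ordered by the difference between RUNX1 and control. Stars mark the 9 hairpins whose groups do not overlap, with miR-5189 at the bottom (−1.98) and miR-3144 at the top (1.36).

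Members were also set against older microRNAs of the same locus within each sample. The log2 ratio of miR-3613-5p to miR-15a-5p was −4.88, −5.63 and −5.05 in the control and −4.10, −3.53 and −4.37 in the RUNX1 group. It rose by 1.18 without overlap (exact two-sided permutation test, p = 0.1, adjusted p = 0.125 over 5 pairs), on top of a rise of miR-15a-5p itself (log2 fold change 1.08 ± 0.17, SE, edgeR, adjusted p = 0.000604). Against miR-16-5p the ratio rose by 2.26, but miR-16-5p had 305 summed counts beside 34132 for miR-15a-5p. RefSeq places miR-16-5p at 2 loci, and among older names 17 of 76 at 2 or more loci reached 30 counts (22.4%), beside 415 of 914 at 1 locus (45.4%). How reads at several loci were counted is not given in the sources used here, so the value for miR-16-5p is uncertain.

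The microRNAs on opposite strands of 1 locus gave the other pairs. For miR-3065-3p against miR-338-5p no ratio is given, since miR-338-5p had 0, 4 and 2 counts in the control and 0 counts in each RUNX1 sample. Between miR-3065-5p and miR-338-3p, which had 20 summed counts, the difference of 0.98 did not exceed the spread of the replicates (exact two-sided permutation test, p = 0.5). A pair added after the values were seen, miR-3074-3p and miR-24-1-5p, moved the other way. miR-3074-3p, printed here because 19 of its bases in a row are the reverse complement of its partner, rose less than miR-24-1-5p, and the ratio fell by 0.91 on the log2 scale, with 2.81, 2.86 and 3.20 in the control and 2.31, 2.16 and 1.67 in the RUNX1 group.
miR-3074-3p: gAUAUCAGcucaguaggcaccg
miR-24-1-5p: uGCCUACUgagcugauaucagu
The log2 fold change of miR-3074-3p was 0.65 ± 0.24 (SE, edgeR, adjusted p = 0.0436), and −0.06 with library size only. The call was lost with TMM on microRNA entries (0.45) and without control replicate 3, RUNX1 replicate 1 or RUNX1 replicate 2. Whether the counting used the strand is not given in the sources used here. The planned partners miR-3074-5p, miR-3618 and miR-3677-3p had 2, 10 and 0 summed counts and were left out.

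Few members belong to known seed families. The 168 sequences held 167 different seeds, and 157 members shared theirs with no other member and no older microRNA at 30 counts or more. The 1 seed held by a pair of members was CUGGCCU, and both were down-regulated in edgeR with all samples.
miR-3176: aCUGGCCUgggacuaccgg
miR-3922-3p: uCUGGCCUugacuugacucuuu
miR-3176 went from 41.2 ± 1.77 to 20.1 ± 10.1 CPM (SD, n = 3 each, log2 fold change −1.04 ± 0.30, SE, edgeR, adjusted p = 0.0142). miR-3922-3p went from 13.9 ± 1.33 to 9.90 ± 1.58 CPM (log2 fold change −0.51 ± 0.19, SE, edgeR, adjusted p = 0.0488), but lost its call in 9 of 13 alternatives. These were DESeq2, RLE factors, no filter, a minimum of 10 counts in every sample, the replicate block and the fits without control replicate 1, control replicate 3, RUNX1 replicate 1 or RUNX1 replicate 3, with values from −0.38 to −0.50. A further 2 seeds were those of older microRNAs among the 50 most abundant ones, and 1 member has the let-7 seed.
miR-4465: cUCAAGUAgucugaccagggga
miR-26b-5p: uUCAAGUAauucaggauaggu
miR-4676-3p: cACUGUUUcaccacuggcucuu
miR-452-5p: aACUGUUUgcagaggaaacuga
miR-4458: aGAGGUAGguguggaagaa
let-7g-5p: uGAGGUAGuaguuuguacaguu
Beside its older partner each of these members was minor. miR-4465 stood at 2.55 ± 0.302 CPM without and 2.40 ± 0.851 CPM with RUNX1, whereas miR-26b-5p rose from 3311 to 9781 mean CPM. For miR-4458, 4, 18 and 11 counts were found without and 6, 3 and 12 with RUNX1, and let-7g-5p had 6099 summed counts.

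Of the 190 members, 52 were not tested because of low counts. The groups did not overlap in 13 of them, 9 higher and 4 lower in RUNX1 samples, which is a description without a test. Other untested small RNAs were not counted in this way, so neither direction has a background of like depth. Among the 947 tested small RNAs, the groups did not overlap in 64.8%. miR-3617-5p was counted 0, 0 and 1 times without and 32, 18 and 11 times with RUNX1, and was chosen for mention after its values were seen. By summed counts, 30 members had at least 30 counts in the RUNX1 samples and fewer in the control samples, 16 the reverse, 106 had at least 30 in both groups and 38 in neither. These sums are not scaled to depth. Every RUNX1 library was deeper (7918551 to 15245007 total counts) than every control library (1618248 to 6193319), so 30 against 16 shows no direction of change. Just inside the threshold, miR-4786-3p and miR-6802-3p had 30 summed counts each, and 7 members, miR-4671-3p, miR-4690-3p and miR-4767 among them, had 31. Just outside it, miR-3175, miR-6509-5p, miR-6772-3p and miR-6894-3p had 29 each. Of the 9 entries left out by name, 8 were tested and 6 were altered, 2 up and 4 down. With them put back, 78 of 146 entries were altered.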

How the data were processed

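Total RNA (1000 ng) of the 6 K562 cultures was made into libraries with the TruSeq Small RNA kit and read on a HiSeq2000. CASAVA 1.8.2 and hg19 are in the submitters' processing notes, and the aligner and the handling of reads at several loci are not given in the sources used here. The deposited values are whole-number counts per small RNA entry, without normalization, and 5 summary lines at 0 were left out. Members, lists and the naming rule were chosen with earlier results of these data known.

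From the counts, edgeR 4.0.16 in R 4.3.3 was run on all entries (filterByExpr with minimum count 10 and minimum total count 15, TMM, glmQLFit and glmQLFTest, condition as the only term, Benjamini-Hochberg over 947 entries). CPM uses TMM-scaled library sizes, and the SE was derived as the size of the fold change over the square root of F. DESeq2 1.42.0 was an alternative. The scripts were tested on simulated data. Ratios within a sample were compared by exact two-sided permutation tests, with 1 added to each count. Floors of 3 counts cover counting error only. Sequences and hairpin positions are from RefSeq (GRCh38.p14), host genes and introns from GENCODE 29. The entries carry no positions in hg19, and names link them to these tables. Named members were the 10 most abundant, the 8 largest rises and 8 largest falls with an adjusted p under 0.05 and no overlap, hairpins with both arms present, pairs with older partners, shared seeds, the 3 most abundant ones not altered, and those nearest to 30 summed counts.

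Alternatives were DESeq2, RLE factors, library size only, TMM on microRNA entries, the replicate block, each replicate left out, no filter, a minimum of 10 counts in each sample, calls by adjusted P-value or with a fold threshold of 1 on the log2 scale, other member thresholds (100 summed counts, 30 counts in control), the left-out names put back, a pseudocount of 0.5 and other denominators.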

Additional observations from a re-analysis of the deposited data

How the results depend on the processing

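Of the 72 altered members, 41 kept their call in every alternative that tested them, 31 lost it in at least 1, and 6 changed sign in at least 1, all 6 with library size only. Named among these 6 were miR-3074-3p (−0.062), miR-3681-5p (−0.19) and miR-4677-3p (−0.028). Library size only gave 11 up and 75 down. With at least 10 counts in every sample, 53 members were tested and 31 were altered, 11 up and 20 down, and 18 of the named members were altered, because fewer entries were tested. The number altered was 63 with DESeq2 (45.7% of those tested, beside 54.5% of all tested small RNAs) and 70 with RLE factors (50.7%, beside 57.6%). TMM on microRNA entries gave 76 (55.1%, beside 58.9%) and no filter gave 87 (45.8%, beside 24.7%). Without a filter the background was all 3084 entries with any count, whereas every member had at least 30 summed counts. The shares of that fit are therefore not at like depth and cannot be compared. The number altered was 53 at a log2 fold change of 1 (38.4%, beside 38.9%). At 100 summed counts it was 59 (59%) and at 30 counts in control 66 (55.5%), both beside 57.6%. Leaving out 1 replicate gave 61 to 86 (40.4 to 59.3%, beside 51.8 to 63.2%). The numbers in the labels did not pair the samples (correlations of deviations −0.03, −0.08 and 0.02), and with the replicate block 70 members were altered, 30 up and 40 down. The share of microRNA counts on members was 2.48 times as high in RUNX1 samples with miR-10a-5p out of the denominator, beside 1.87. Ratios to older partners and the count of separated arm ratios moved by less than the replicate spread or 1.5 times with a pseudocount of 0.5 or without 1 replicate. Most members had few counts, so changes below the filter were not detectable at this depth.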
